A study of Carassius auratus with 10 samples.

Results

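The genes described here are the cadherins, protocadherins and catenins of cultured goldfish (Carassius auratus) radial glial cells (RGCs), together with the giant cadherins of the Fat, Dachsous and Celsr families. Members were taken by gene symbol alone, as every symbol that begins with cdh and a digit, with pcdh, ctnn, dchs or celsr, or with fat1 to fat4, and the reads of all unigenes (assembled transcripts) with one symbol were added up. This gave 86 of 17474 gene symbols, resting on 383 unigenes. Of the 86 members, 63 had at least 100 reads over all groups, as did 14415 of all symbols, and fold changes are given for these 63. The other 23 members are accounted for by their reads.

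Cadherins are calcium-dependent adhesion proteins that join neighbouring cells by binding the same or a similar cadherin on the opposite membrane. Inside the cell, classical cadherins bind beta catenin and p120 catenin (a delta catenin), and beta catenin binds alpha catenin, which links the junction to actin. Beta catenin not held at a junction also acts in the nucleus as the effector of Wnt signalling. In the vertebrate brain N-cadherin holds radial glia together in the ventricular wall, protocadherins act mainly in cell recognition, and the Fat, Dachsous and Celsr cadherins orient cells within a sheet.

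RGCs came from the hypothalamus and telencephalon of adult female goldfish, were grown for 3 passages in medium with serum, and were untreated (control, 4 cultures), exposed for 24 h to 1000 nM secretoneurin A (SNa, a peptide cut from secretogranin II; 3 cultures), or exposed for 24 h to 10 µM SKF 38393 (SKF, an agonist of the dopamine D1 receptor; 3 cultures). The paper states that SNa was diluted in serum-free medium. Both treated groups were compared with the same controls. The values used here are 1 pooled number per group and unigene, so no difference below has a replicate check, no test between groups could be made, and the intervals given are 95% exact binomial intervals that cover counting error only. The pools held 147886694 reads for control, 64778968 for SNa and 86711702 for SKF.

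The cell type on the label was read against marker genes. The paper cites earlier work in which most cells of such cultures held both glial fibrillary acidic protein and brain lipid binding protein. In control the radial glial markers vim (546697 reads), gfap (239869), fabp7b (103303) and sox2 (49552) were present, and aqp4 was at 0 reads. fabp7b had only 9764 reads in SNa and 14299 in SKF. The 12 radial glial markers found summed to 7563 reads per 1000000 (CPM) in control, 4333 in SNa and 4332 in SKF. Of these sums vim alone gave 3697, 2311 and 2318 CPM. Markers of fibroblasts and mural cells were also high, and their sum moved the other way, from 24140 CPM in control to 35304 in SNa and 35432 in SKF. Of the 16 with enough reads, 13 lay above 0 in each treated pool. The other 3, rgs5b, tagln and twist1b, lay below 0 in both. rgs5b had 17142, 2384 and 4230 reads and stood at 0.315 of control in SNa and 0.419 in SKF. Epithelial markers summed to 9112, 8108 and 7958 CPM, nearly all from the keratins krt8, krt18 and krt4. The first 2 of these keratins were lower in both treated pools and krt4 was higher. Other epithelial markers had few reads, with 702, 344 and 352 for cldn7b and 374, 176 and 208 for tp63. epcam had 102, 40 and 52 and krt5 had 8, 0 and 8, so the epithelial sum is one of keratins. Neuronal markers summed to 50.7, 50.4 and 49.4 CPM, most of them from tubb5, map2, gap43, gad1b and stmn2a. The neuronal elavl3 had 14, 0 and 10 reads. Lens crystallins and other lens genes held 62479 reads in control against 1155 in SNa and 1123 in SKF, with all 7 lens genes lower in both treated pools. Markers of microglia and leukocytes summed to 54.9, 73.5 and 72.2 CPM, of endothelium to 210, 130 and 127 CPM, and of oligodendrocytes to 17.4, 15.7 and 17.6 CPM. The leukocyte sum was mostly of cd74a (4222, 2481 and 3302 reads), while ptprc had 254, 174 and 298 and lcp1 had 4, 0 and 0. Nearly all oligodendrocyte reads were of mbpb (2391, 953 and 1376). Pituitary hormone genes had 25, 4 and 4 reads. Most endothelial reads were of cldn5a (15348, 1985 and 2639) and flt1 (15247, 6245 and 8130), while cdh5 had 116 control reads and egfl7 had 94. Of the 5 endothelial markers with enough reads, 2 lay above 0 in SNa and 1 in SKF. The part of these differences between pools in the results below was not tested, and in bulk RNA fewer cells of a type and less RNA per cell cannot be told apart.

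The members took 3861 CPM of the control pool, 4295 CPM of the SNa pool and 4339 CPM of the SKF pool, from 570917, 278195 and 376248 reads. The summed fold change was 1.10 for SNa (interval 1.10 to 1.11) and 1.12 for SKF (1.11 to 1.13). The median log2 fold change of the 63 members was 0.22 in SNa and 0.19 in SKF, where the median of all 14415 symbols was 0.01 and 0.04. Most members were therefore a little higher in both treated pools: 46 of 63 lay above 0 in SNa and 50 of 63 in SKF, against 50.8% and 53.9% of all symbols. The SNa and SKF values share their controls, so neither count stands as a repeat of the other. Of the 10 classes of members, the clustered protocadherins (21 of the 63) had the highest medians, 0.46 in SNa and 0.39 in SKF. The other class medians ran from -1.62 to 0.30 in SNa and from -1.49 to 0.26 in SKF.

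**Figure D1:**
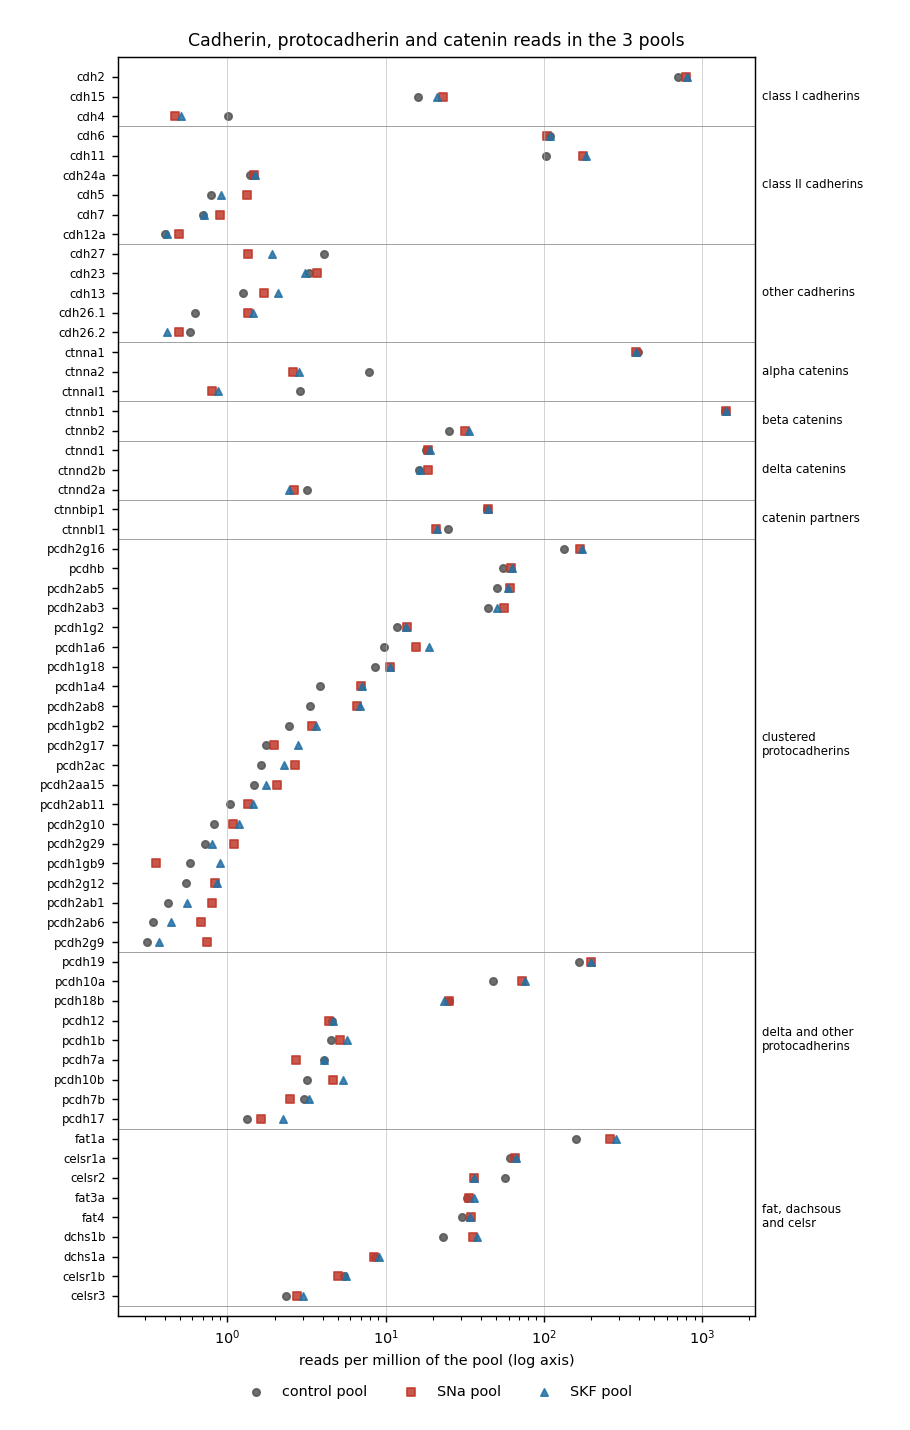
CPM in the control, SNa and SKF pools (log axis) for the 63 members with at least 100 reads, grouped by class and ordered by control reads within a class. Each point is 1 pool without an error bar, and values of different genes are not corrected for transcript length; the control point lies to the right of both treated points for ctnna2, ctnnal1, cdh27, cdh4 and celsr2, and to their left for cdh11, fat1a, dchs1b and pcdh10a.

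Few members passed a 2-fold difference. In SNa 2 of 63 were more than 2-fold higher than control (cdh26.1 and pcdh2g9), where 0.673% of all symbols were, and 4 were more than 2-fold lower (ctnna2, ctnnal1, cdh27 and cdh4), where 4.13% of all symbols were. In SKF 2 were higher (cdh26.1 and pcdh2ab8; 1.45% of all symbols) and 3 were lower (ctnna2, ctnnal1 and cdh27; 3.63% of all symbols). These counts of 2 to 4 genes are too small to set against the background shares.

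At 1.5-fold the members stood further from the background in the upward direction. In SNa 15 of the 63 (23.8%) were higher and 7 (11.1%) were lower, against 7.18% and 9.88% of all symbols. In SKF 14 (22.2%) were higher and 5 (7.94%) were lower, against 10.8% and 9.62% of all symbols. Of the genes past 1.5-fold upward, 9 of 15 in SNa and 6 of 14 in SKF were clustered protocadherins, most of them with few reads. In SNa the counting interval lay above 1 for 29 members and below 1 for 9, shares of 46.0% and 14.3% where all symbols had 30.3% and 29.8%. In SKF it lay above 1 for 30 and below 1 for 8, where all symbols had 36.4% above and 30.1% below. Clustered protocadherins gave 14 of the 29 members above 1 in SNa and 12 of the 30 in SKF, and none of those below 1. Members of that class share exons and may share reads, so they are not independent, and the shares of the 63 members carry that limit. The interval narrows with depth, so at high read numbers it leaves out 1 for changes of a few percent.

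**Figure D2:**
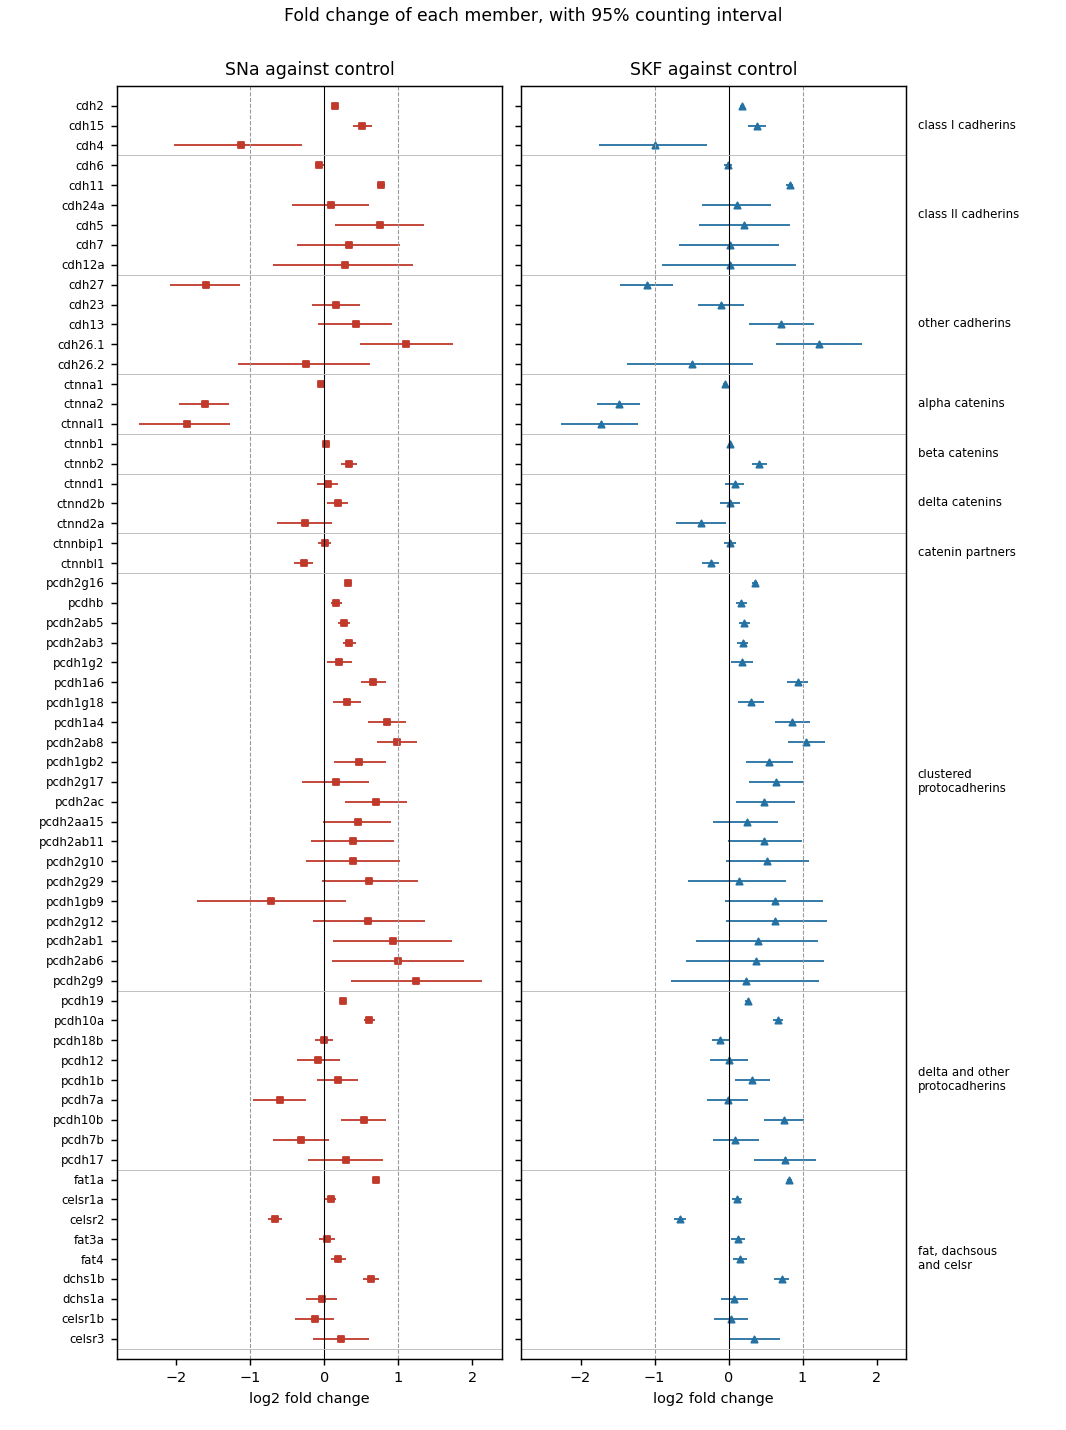
Log2 fold change of the 63 members in SNa (left) and SKF (right) against the shared control pool, with the 95% counting interval as a horizontal line and dashed lines at 2-fold. Alpha catenins other than ctnna1 lie between -1.86 and -1.49 in both panels, ctnnb1 lies at 0.02, and the clustered protocadherins lie to the right of 0 except pcdh1gb9 in SNa.

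Among the classical (class I) cadherins, cdh2 encodes N-cadherin, the main cadherin of neural tissue. It had 104726 reads in control, 51214 in SNa and 69773 in SKF, which is 708, 791 and 805 CPM. Both treated pools were slightly higher, by a log2 fold change of 0.15 in SNa (fold interval 1.09 to 1.12) and 0.18 in SKF (1.12 to 1.15).

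That small difference in the sum hid opposite values in the unigenes of cdh2. The unigene matching all 893 residues of zebrafish N-cadherin, with 96.2% identity, had 92861, 48794 and 66214 reads and a log2 fold change of 0.25 in SNa and 0.27 in SKF. A second unigene, matching residues 342 to 893 with 73.2% identity, had 10027, 1831 and 2699 reads, and was lower at -1.27 in SNa and -1.13 in SKF. Another, matching residues 18 to 348 with 60.6% identity, had 1838, 589 and 860 reads and lay at -0.46 and -0.33. With their lower identity, the assignment of the latter unigenes to cdh2 is uncertain, and without unigenes numbered 120000 or above, which include the full-length one, the gene as a whole would lie at -1.27 and -1.13.

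cdh15 encodes M-cadherin, known from skeletal muscle. It had 2381 reads in control, 1499 in SNa and 1834 in SKF, and was higher in both treated pools (log2 0.51 and 0.39). cdh4 encodes R-cadherin, first described in the retina, and had 149, 30 and 44 reads spread over 10 unigenes. It stood at 0.456 of control in SNa (0.245 to 0.807) and 0.501 in SKF (0.298 to 0.821), the latter just short of 2-fold. No unigene of cdh4 had more than 26 control reads, so the value rests on the sum.

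E-cadherin (cdh1) carried no entry in the gene name column used to choose members. A single unigene described as cadherin-1, with 66.7% identity to the zebrafish protein, had 4129, 2666 and 3762 reads.

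**Figure D3:**
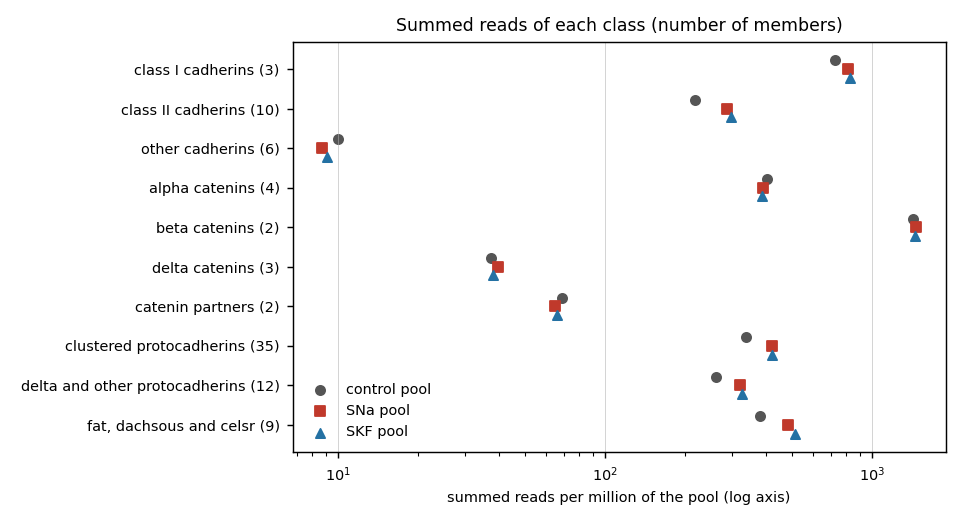
Summed CPM of the 10 classes of members in the 3 pools (log axis), with the number of members of each class in brackets. The treated points lie to the right of control for class II cadherins, both protocadherin classes and the Fat, Dachsous and Celsr class, and within a few percent of it for beta catenins.

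The class II cadherins, which include cadherins of mesenchyme and of endothelium, summed to 216 CPM in control, 287 in SNa and 297 in SKF. The excess came from cdh11, which encodes OB-cadherin, a cadherin of osteoblasts and other mesenchymal cells. cdh11 had 15351 reads in control, 11524 in SNa and 16030 in SKF, which is 104, 178 and 185 CPM. It was 1.70-fold higher in SNa (interval 1.64 to 1.76) and 1.77-fold higher in SKF (1.72 to 1.83), on 1 unigene covering residues 1 to 800 of the zebrafish protein with 97.1% identity. Most fibroblast and mural markers moved the same way (13 of 16 above 0 in each treated pool, median log2 0.57 in SNa and 0.58 in SKF). The part of these markers in the cdh11 value was not tested.

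cdh6, a class II cadherin of kidney and neural crest in other vertebrates, did not share the difference of cdh11. It had 16124, 6788 and 9447 reads, or 109, 105 and 109 CPM, with a log2 fold change of -0.07 in SNa and -0.01 in SKF. VE-cadherin (cdh5), which marks endothelium, had only 116, 86 and 79 reads. Its SNa fold of 1.68 (1.10 to 2.53) came largely from 1 unigene of 66.9% identity (42, 52 and 29 reads), and over unigenes of at least 80% identity its log2 fold change was -0.24. cdh24a (204, 96 and 130 reads), cdh7 (104, 58 and 62) and cdh12a (60, 32 and 36) had intervals that held 1 in both comparisons. Unigenes of cdh24a matched as far as residue 1862, where the match of cdh11 ended at residue 800. Their identity ran from 51.0% to 98.9%, so the place of cdh24a among the class II cadherins is uncertain. The remaining class II members had too few reads for a fold change, with 32, 14 and 6 for cdh18a, 6, 6 and 2 for cdh10a, 6, 0 and 0 for cdh8, and 0, 0 and 4 for cdh24b.

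The other cadherins were sparse. cdh27 had 604 reads in control, 88 in SNa and 166 in SKF, or 4.08, 1.36 and 1.91 CPM. It was lower in both treated pools, with a log2 fold change of -1.60 in SNa (fold interval 0.235 to 0.454) and -1.10 in SKF (0.361 to 0.596). Both of its larger unigenes were lower, one with 395, 62 and 112 reads (72.5% identity) and the other with 201, 26 and 42. At that identity the assignment of the former to cdh27 is uncertain. cdh26.1 was higher instead, with 92, 87 and 126 reads on 12 short unigenes. It was 2.14-fold higher in SNa (1.40 to 3.35) and 2.32-fold higher in SKF (1.56 to 3.48). All of these unigenes had low identity, from 65.4% to 77.9%, so their assignment to cdh26.1 is uncertain. The related cdh26.2 had 86, 32 and 36 reads and intervals that held 1, and whether the copies differ was not tested. T-cadherin (cdh13), which has a lipid anchor in place of a cytoplasmic tail, had 186, 110 and 180 reads. It lay at 0.42 in SNa, with an interval that held 1, and 0.72 in SKF, and its interval of SNa over SKF held 1 (0.572 to 1.15). cdh23, a component of the tip links of hair cells, had 487, 240 and 267 reads on 30 unigenes, and both its intervals held 1. cdh17 had 18, 8 and 14 reads.

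The alpha catenins held the lowest fold changes of all members, but not in the form that carried most of their reads. ctnna1, which encodes alpha E-catenin, the widely expressed form, had 58330 reads in control, 24996 in SNa and 33306 in SKF, which is 394, 386 and 384 CPM. Its fold change was 0.970 in SNa (0.950 to 0.991) and 0.969 in SKF (0.950 to 0.987). ctnna1 thus held its share of the reads to within a few percent.

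ctnna2 encodes alpha N-catenin, the form of neural tissue, and had 1169 reads in control, 168 in SNa and 246 in SKF (7.90, 2.59 and 2.84 CPM). It stood at 0.325 of control in SNa (0.256 to 0.410) and 0.357 in SKF (0.292 to 0.435). Most of this came from 1 unigene of 99.5% identity (1027, 130 and 204 reads), which covered residues 277 to 865. ctnnal1 encodes alpha catulin, a relative of alpha catenin and vinculin. It had 427, 52 and 76 reads (2.89, 0.803 and 0.876 CPM) and stood at 0.276 of control in SNa (0.176 to 0.414) and 0.302 in SKF (0.208 to 0.427), with its reads spread over 8 unigenes. The radial glial marker list was lower in the treated pools as well, with 10 of its 11 members with enough reads below 0 in each. Of these, 3 were more than 2-fold lower in each. fabp7a stood at 0.033 of control in SNa and 0.035 in SKF, slc1a3b at 0.114 and 0.115, and fabp7b at 0.214 and 0.235. The 1 marker of the list that was not lower, nes, was higher (fold 1.41 in SNa and 1.21 in SKF). The neuronal list, level in its sum, held genes of both directions. Among neuronal markers elavl4 (fold 0.605 in SNa and 0.472 in SKF), gap43 (0.561 and 0.633) and stmn2a (0.809 and 0.659) had intervals below 1 in both, and syt1a (1.41 and 1.54) and map2 (1.15 and 1.28) had intervals above 1 in both. The part of radial glial and neuronal markers in the values of ctnna2 and ctnnal1 was not tested. ctnna3, known from heart and testis, had 0, 22 and 0 reads on 1 unigene.

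Beta catenin itself was level. ctnnb1 had 206244 reads in control, 92641 in SNa and 123006 in SKF, or 1395, 1430 and 1419 CPM, and a log2 fold change of 0.02 in both comparisons. It supplied most of the reads of its class, and ctnnb1 and ctnnb2 together made up 36.8% of the member reads in control.

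The 6 unigenes of ctnnb1 were not level one by one. The pair that matched all 780 residues lay at 0.02 and 0.16 in SNa and 0.01 and 0.12 in SKF, with 86408 and 52572 control reads. The pair that matched only residues 659 to 780, the C-terminal end, was lower, at -0.51 and -0.37 in SNa and -0.54 and -0.44 in SKF, with 22121 and 14674 control reads. A unigene that stopped at residue 655 (29131 control reads) lay at 0.24 and 0.33, and one of residues 1 to 68 lay at 0.43 and 0.52. Fold changes thus differed between unigenes of one symbol. The lower values were those of the pair matching only the C-terminal end, while the full-length pair, which also covers that end, was not lower. Whether these unigenes are separate gene copies or pieces of one transcript was not tested.

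ctnnb2, the second beta catenin gene of teleosts, had 3713, 2068 and 2917 reads on 1 unigene covering residues 1 to 205 only. It was 1.26-fold higher in SNa (1.17 to 1.36) and 1.33-fold higher in SKF (1.24 to 1.43).

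Of the delta catenins, ctnnd1 encodes p120 catenin, which keeps cadherins at the membrane. By gene name it had 2649, 1207 and 1655 reads and lay at 0.05 in SNa and 0.08 in SKF, with intervals that held 1. A longer unigene, described as the same protein but with a blank gene name, had 8129, 4834 and 6879 reads. With it the log2 fold change became 0.34 in SNa (fold interval 1.21 to 1.33) and 0.43 in SKF (1.29 to 1.40), so the value of p120 catenin depended on the annotation column. ctnnd2b and ctnnd2a encode delta catenin, known from neurons. ctnnd2b had 2394, 1196 and 1434 reads and lay at 0.18 and 0.02. ctnnd2a had 468, 172 and 214 reads and lay at -0.26 in SNa, with an interval that held 1, and -0.37 in SKF. For ctnnd2a the interval of SNa over SKF held 1 (0.798 to 1.44).

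Both catenin partners carry the catenin name without being junction proteins. ctnnbip1 encodes ICAT, an inhibitor of the binding of beta catenin to TCF factors, and was level with 6510, 2878 and 3875 reads (44.0, 44.4 and 44.7 CPM). ctnnbl1, a nuclear protein associated with splicing factors, had 3691, 1343 and 1843 reads and was lower, at 0.824 of control in SNa (0.754 to 0.901) and 0.847 in SKF (0.782 to 0.918).

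**Figure D4:**
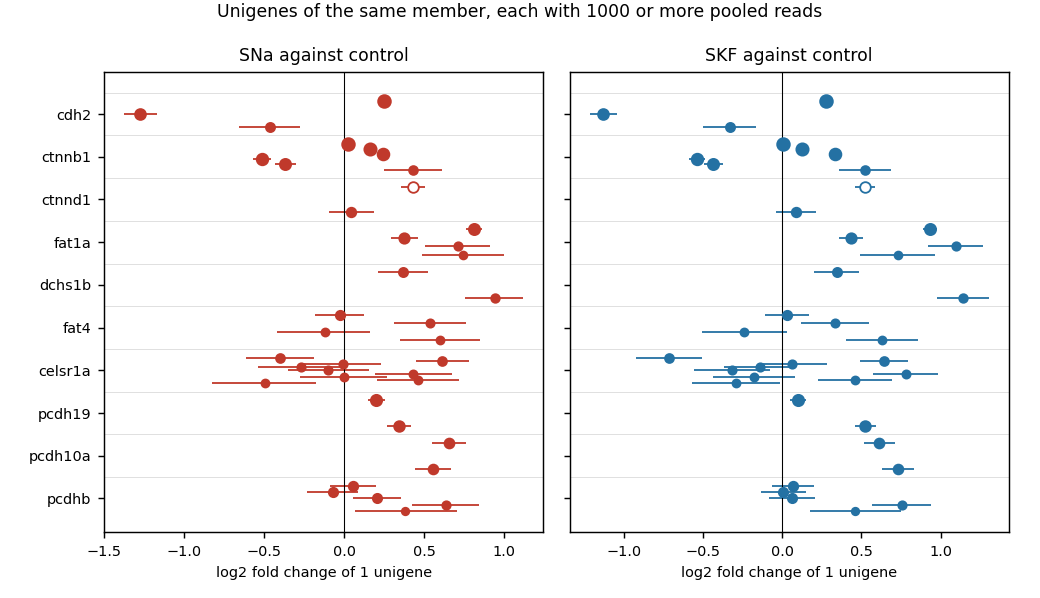
Log2 fold change against control of single unigenes with at least 1000 pooled reads for 10 genes, SNa on the left and SKF on the right; lines are 95% counting intervals, larger points have more control reads, and the open point is the ctnnd1 unigene named only by its protein description. The 3 unigenes of cdh2 range from -1.27 to 0.25 in SNa, and the 6 of ctnnb1 from -0.51 to 0.43.

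The clustered protocadherins are encoded in tandem arrays whose isoforms share constant exons, and each neuron of mouse expresses a few of them. In zebrafish they form the clusters pcdh1 and pcdh2, from which the symbols here are taken, apart from pcdhb. That symbol names neither cluster, and its place in the class rests on the symbol alone. Goldfish carry further copies, and reads from near-identical isoforms cannot be told apart, so single isoforms are uncertain. As a class they summed to 336 CPM in control, 423 in SNa and 423 in SKF, on 35 symbols of which 21 had at least 100 reads. Of these 21, 14 had an interval above 1 in SNa and 12 in SKF, and none had one below 1 in either. All symbols had 30.3% above and 29.8% below in SNa and 36.4% and 30.1% in SKF. Since the isoforms may share reads, the 21 are not independent of each other, and the counts do not stand for 21 separate genes.

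pcdh2g16 had the most reads of the class, 19960 in control, 11029 in SNa and 15083 in SKF, or 135, 170 and 174 CPM. It lay at 0.32 in SNa and 0.36 in SKF, nearly all on 1 unigene of 89.7% identity. Without it the class still lay at 0.32 and 0.30, so the class value did not rest on that isoform. pcdhb (8182, 4037 and 5439 reads), pcdh2ab5 (7517, 3987 and 5137) and pcdh2ab3 (6532, 3645 and 4397) lay between 0.16 and 0.34 in SNa and between 0.17 and 0.21 in SKF. The 5 unigenes of pcdhb with at least 1000 reads ranged from -0.07 to 0.64 in SNa and from 0.01 to 0.75 in SKF.

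Larger differences were found among isoforms with fewer reads. pcdh2ab8 had 493 reads in control, 428 in SNa and 602 in SKF, and was 1.97-fold higher in SNa (1.63 to 2.38) and 2.07-fold higher in SKF (1.75 to 2.47). pcdh1a4 had 573, 454 and 611 reads and was 1.79-fold and 1.81-fold higher. pcdh1a6 had 1446, 1010 and 1629 reads and was 1.58-fold and 1.91-fold higher. In all 3 isoforms control lay below both treated pools. pcdh2g9 (46, 48 and 32 reads), pcdh2ab6 (50, 44 and 38) and pcdh2ab1 (62, 52 and 48) reached 1.90-fold to 2.36-fold in SNa on 46 to 62 control reads each, and their SKF intervals held 1. The interval of SNa over SKF held 1 for pcdh2ab6 (0.798 to 3.02) and pcdh2ab1 (0.798 to 2.63), and lay above 1 for pcdh2g9 (1.02 to 4.03). For pcdh2ab1 the direction rested on the sum, since its unigene with the highest mean lay at -0.07 in SNa and -0.49 in SKF. Of the remaining isoforms with at least 100 reads, pcdh1g2 (1742, 883 and 1166 reads), pcdh1g18 (1266, 693 and 925), pcdh1gb2 (365, 223 and 314) and pcdh2ac (241, 173 and 199) had intervals above 1 in both comparisons, between 0.20 and 0.70 in SNa and between 0.18 and 0.55 in SKF. pcdh2g17 (261, 128 and 241 reads) lay at 0.15 in SNa, with an interval that held 1, and 0.65 in SKF. pcdh2aa15 (219, 133 and 153 reads), pcdh2ab11 (153, 88 and 126), pcdh2g10 (121, 70 and 102), pcdh2g29 (106, 71 and 69) and pcdh2g12 (81, 54 and 74) had intervals that held 1 in both, with every value above 0. The 14 isoforms below 100 reads had 0 to 36 control reads each, 0 to 24 SNa reads and 0 to 42 SKF reads.

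The delta and other protocadherins act outside the clusters. pcdh19, a delta protocadherin whose human orthologue is an epilepsy gene, had 24575, 12904 and 17311 reads, or 166, 199 and 200 CPM. It lay at 0.25 in SNa and 0.26 in SKF. pcdh10a and pcdh10b encode OL-protocadherin, and both copies were higher in both treated pools. pcdh10a had 7036, 4735 and 6593 reads and was 1.52-fold higher in SNa (1.45 to 1.61) and 1.59-fold higher in SKF (1.52 to 1.67). pcdh10b had 471, 301 and 467 reads and was 1.45-fold and 1.68-fold higher.

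Other genes of this class with at least 100 reads had intervals that held 1 in both comparisons with control, or left it out in only 1 of them. pcdh18b had 3715, 1636 and 2029 reads and intervals that held 1, as did pcdh12 (681, 284 and 402 reads), a protocadherin of endothelium. pcdh7a (NF-protocadherin) had 604 reads in control, 176 in SNa and 354 in SKF, and lay at -0.60 in SNa and -0.01 in SKF. Its copy pcdh7b had 450, 160 and 283 reads and lay at -0.31 and 0.09, both with intervals that held 1. pcdh1b (673, 336 and 496 reads) and pcdh17 (196, 106 and 196) had intervals above 1 in SKF alone, at 0.32 and 0.76, beside SNa values of 0.18 and 0.29. For both genes the interval of SNa over SKF held 1 (0.739 to 1.10 and 0.507 to 1.02), so a difference between the treatments was not seen. pcdh20 had 30, 0 and 4 reads, pcdh8 had 26, 22 and 14, and pcdh15 had 22, 8 and 6.

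The Fat and Dachsous cadherins bind each other across cell borders and feed into planar polarity and Hippo signalling. fat1a had 23749 reads in control, 17041 in SNa and 24769 in SKF, which is 161, 263 and 286 CPM. It was 1.62-fold higher in SNa (1.58 to 1.67) and 1.77-fold higher in SKF (1.73 to 1.81). Its 4 unigenes with at least 1000 reads were all higher, at 0.38 to 0.81 in SNa and 0.44 to 1.10 in SKF, with the lowest value in each for the one at the C-terminal end.

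dchs1b and dchs1a encode Dachsous 1, the ligand of Fat4. dchs1b had 3396, 2319 and 3291 reads and was 1.55-fold higher in SNa (1.43 to 1.67) and 1.64-fold higher in SKF (1.54 to 1.76). Its copy dchs1a had 1260, 545 and 784 reads and intervals that held 1, so the difference was seen in 1 of the copies. fat4 had 4489, 2260 and 2958 reads and lay at 0.19 and 0.16. Its 4 unigenes with at least 1000 reads ranged from -0.12 to 0.60 in SNa and from -0.24 to 0.63 in SKF. fat3a had 4847, 2193 and 3129 reads and lay at 0.03 and 0.13. Without its largest unigene and 3 others numbered 120000 or above, fat3a lay at 0.40 and 0.94 on few reads.

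The Celsr cadherins (Flamingo in Drosophila) are core planar polarity proteins. celsr2 had 8446 reads in control, 2354 in SNa and 3162 in SKF, or 57.1, 36.3 and 36.5 CPM. It stood at 0.631 of control in SNa (0.591 to 0.673) and 0.635 in SKF (0.599 to 0.673), on 1 unigene covering residues 1 to 2941. celsr1a had 9059, 4240 and 5775 reads and lay at 0.08 and 0.11, but its 9 unigenes with at least 1000 reads ranged from -0.50 to 0.61 in SNa and from -0.72 to 0.78 in SKF. celsr1b (804, 324 and 486 reads) had intervals that held 1. celsr3 (345, 178 and 259, on 19 unigenes) lay at 0.22 in SNa, with an interval that held 1 (0.897 to 1.52). In SKF it lay at 0.35 (1.01 to 1.62), and its interval of SNa over SKF held 1 (0.690 to 1.21). Within the Celsr family, then, celsr2 alone stood more than 1.5-fold below control.

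SNa and SKF were also set against each other. The control reads of a member do not enter this comparison, but the 2 treated pools were brought to one scale through their shared control pool. The median log2 fold change of SNa over SKF was -0.04 for the members and -0.03 for all symbols. More than 2-fold higher in SNa was 1 member, pcdh2g9 (0.43% of all symbols), and more than 2-fold lower was 1, pcdh1gb9 (0.721%). The counting interval lay above 1 for 2 members and below 1 for 8, where all symbols had 7.45% and 16%. This balance turned with the scaling, to 8 above and 5 below under median ratio size factors, and was 7 above and 15 below when reads were not divided by 2.

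pcdh1gb9 had 86 reads in control, 23 in SNa and 78 in SKF, and stood in SNa at 0.394 of SKF (0.196 to 0.801). Of the other members, fat1a stood at 0.918 of SKF (0.893 to 0.944), pcdh1a6 at 0.827 (0.740 to 0.926), pcdh7a at 0.664 (0.508 to 0.862), pcdh7b at 0.755 (0.564 to 0.996), pcdh2g17 at 0.709 (0.517 to 0.972), cdh11 at 0.959 (0.927 to 0.993) and cdh2 at 0.980 (0.964 to 0.996). For the last of these the sign rests on the scaling, since under median ratio size factors the log2 value of cdh2 moved from -0.03 to 0.00 and that of cdh11 from -0.06 to -0.03, while fat1a moved from -0.12 to -0.09. pcdh2ab3 went the other way, at 1.11 (1.04 to 1.18). For ctnnb1 the interval of SNa over SKF was 0.993 to 1.02, and for ctnna1 it was 0.979 to 1.03.

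**Figure D5:**
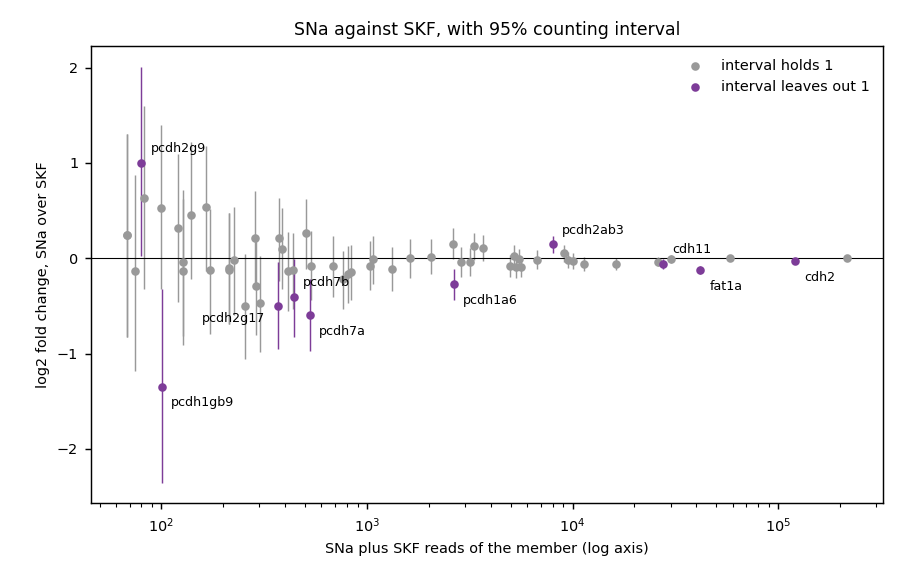
Log2 fold change of SNa over SKF for the 63 members against their SNa plus SKF reads (log axis), with 95% counting intervals; purple points have an interval that leaves out 1. Of the purple points, cdh2, fat1a and cdh11 have the most reads and lie at -0.03, -0.12 and -0.06, while pcdh1gb9 and pcdh2g9 have the fewest and lie farthest from 0.

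Further genes of the same pathways were read as lists. Of all symbols, 0.673% were more than 2-fold higher and 4.13% lower in SNa, and 1.45% and 3.63% in SKF. The medians of all symbols were 0.01 and 0.04. The lists are too small for their counts past 2-fold to be set against these shares. Of the adherens junction partners, such as the actin linkers actn1 and zyx and the gamma catenin jupa, 38 of 41 symbols had at least 100 reads. None was more than 2-fold higher or lower in SNa, and 1 was higher in SKF, the actin regulator vaspa with 80, 54 and 124 reads. Their median was 0.14 in SNa and 0.13 in SKF. Within the list iqgap1, a scaffold that binds beta catenin, lay at 0.58 and 0.66. jupa lay at -0.10 in both, while its copy jupb, with 776, 412 and 596 reads, lay at 0.27 and 0.38.

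Of the proteases and trafficking genes that cleave or recycle cadherins, 27 of 28 had enough reads and none passed 2-fold in either comparison (medians 0.13 and 0.18). Neither did any of the 16 genes of the beta catenin destruction complex and its nuclear partners, with medians of -0.13 and -0.03. axin2, a target as well as an inhibitor of Wnt signalling, had 1272, 422 and 598 reads and lay at -0.41 and -0.33.

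Of the planar polarity and Hippo genes that work with Fat, Dachsous and Celsr, 26 of 27 had enough reads and 1 passed 2-fold. wwc1, which encodes the Hippo activator KIBRA, had 17806 reads in control, 3592 in SNa and 4274 in SKF and was lower, at -1.13 and -1.30. The medians of this list were 0.20 and 0.33.

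Of the factors of the epithelial to mesenchymal transition, which lower E-cadherin in epithelia, 15 of 16 had enough reads. 1 of them passed 2-fold, twist2, with 404, 54 and 70 reads, at -1.72 and -1.77. snai2 lay at 0.11 in SNa and 0.52 in SKF, and snai1a at -0.05 and 0.22. The medians of this list were -0.03 and 0.22.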

How the data were processed

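RNA of 10 RGC cultures was sequenced as paired-end reads. The authors assembled the reads de novo, matched the unigenes to chordate proteins and deposited 1 expression signal per group and unigene, the pooled reads of a group divided by a DESeq size factor. For each best protein hit the authors also deposited its percent identity. The deposited fold changes, p-values and FDR are the authors' own comparison and were not used. No source used here names the program that assigned reads.

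Each value was turned back into pooled reads through the value that 1 read takes (100% whole within 0.01), and reads were summed per gene symbol over the tables of both comparisons. In 167448 unigenes present in both tables the control reads were equal. CPM is reads per 1000000 reads of a pool. Fold changes used the authors' scaling, a minimum of 100 pooled reads and a floor of 3 reads for a group at 0. Exact binomial intervals (95%) were computed on reads divided by 2, since mates come in pairs. They treat fragments as independent molecules. The edgeR test that was planned for values per culture could not be run, since the tables give 1 value per group. Levels were not divided by transcript length, because lengths were not used. Where genes are ordered, summed or given as a share, this is therefore by reads and not by transcript numbers.

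The study states 3 controls where the labels list 4, of which 1 was run on 1 lane. Named genes were up to 4 of each class with the most control reads, up to 5 at each end of each comparison whose interval left out 1, list genes past 2-fold, and defining markers (twist1a and twist1b stand in the fibroblast and in the transition list), and other members are given by their reads. The genes outside these rules that are named with values (such as iqgap1, jupa, axin2, snai1a and snai2) were chosen after their values were seen. Members and lists were chosen with earlier results of these data known. The calculation was tested on simulated data. Python 3.11.15, pandas 2.3.3, numpy 2.4.6, scipy 1.17.1 and matplotlib 3.10.9 were used. No sequence is shown.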

Additional observations from a re-analysis of the deposited data

Results flagged for a closer look

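Members were chosen from the gene name column, and a further 33 unigenes were named as members only in their protein description. These held 17465 reads in control, 10618 in SNa and 14703 in SKF, which would add 3.06%, 3.82% and 3.91% to the member reads. They were singled out because they carry signal in a column that the comparisons do not use. Of the 9 symbols found only there, 6 had at least 100 control reads: cdh1 with 4129, pcdh2g4 with 1382, pcdh11x with 695, pcdh2aa3 with 310, pcdh1gc5 with 292 and pcdh2ab7 with 149.

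For cdh1 (E-cadherin) the log2 fold change was 0.55 in SNa (fold interval 1.36 to 1.57) and 0.63 in SKF (1.45 to 1.65). These values rest on 1 unigene of 66.7% identity, so its assignment to cdh1 is uncertain. pcdh11x lay lower, at -0.49 in SNa and -0.40 in SKF. pcdh2aa3 lay at 0.83 and 0.74, and pcdh2ab7 at 0.00 in SNa and 0.79 in SKF. No value of a single culture was at hand, so no culture could be set against the others of its group.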

How the results depend on the processing

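No paired analysis was possible because the deposited values are pooled over each group, and for the same reason leaving out each replicate in turn could not be run. The counts past 2-fold followed the minimum of reads. With a minimum of 1000 reads, 1 member was lower and 0 were higher in SNa, 1 was lower and 1 higher in SKF, and for SNa against SKF 0 were lower and 0 higher. With a minimum of 20 reads, 5 were higher in SNa, 6 lower and 5 higher in SKF, and 2 lower and 5 higher in SNa against SKF. At 1.5-fold the counts were 7 lower and 15 higher in SNa, 5 and 14 in SKF, and 2 and 2 in SNa against SKF. Taking only the unigene with the highest mean gave 4 higher in SNa, 1 higher in SKF, and 2 lower and 2 higher in SNa against SKF. Unigenes of at least 80% identity, which leave none of cdh26.1, gave 1 higher in SKF. Unigenes numbered below 120000 gave 1 higher in SNa, 5 lower in SKF and 2 lower in SNa against SKF. Those numbered 120000 or above held 42% of the member reads. Over all unigenes with at least 100 reads, the SNa median was -0.07 below that number and 0.06 from it upward. In SKF both medians were -0.02. Names from protein descriptions, an alternative chosen after seeing the data, gave 5 higher in SNa. The cause of these shifts was not tested beyond the change of genes or reads that each setting makes.

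CPM, median ratio size factors and joining a and b copies kept every one of these counts within 1.5 times. No member past 2-fold changed sign under any alternative run. The median of the members in SKF moved to 0.30 without unigenes numbered 120000 or above and to 0.31 with names from descriptions, and the other medians stayed within 0.1. cdh2 lay at -1.27 in SNa and -1.13 in SKF without the high-numbered unigenes, since its longest unigene is among them. pcdh2ab3 lay at -0.77 in SNa there, on 27, 7 and 19 reads. On the unigene with the highest mean, cdh4 lay at -0.35 in SKF, cdh23 at -0.58 in SNa and -0.99 in SKF, cdh24a at -0.70 and 0.83, and ctnnal1 at -1.27 in SNa. Without the high-numbered unigenes pcdh12 lay at 0.63 in SKF and cdh26.1 at 0.75 in SNa. For SNa against SKF the interval counts (2 above 1, 8 below) became 8 and 5 under median ratio size factors and 7 and 15 with reads not divided by 2. Of 905 values of single genes, 52 moved by over 0.25.

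Depth limits the isoforms with few reads, whose intervals span more than 2-fold (pcdh2g9, 1.28 to 4.38 in SNa).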
